A study of Mus musculus with 2 samples.

Results

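The phagocyte NADPH oxidase is represented here by 8 of the 22911 genes on the arrays, taken by name: Cybb, Cyba, Ncf1, Ncf4, Rac1, Rac2, Nox1 and Nox4. Every probe whose RefSeq accession led to one of these symbols was used, which gave 14 probes. No measured value entered this rule for probes, but the genes were chosen with earlier results of these data known. The cells were LKS+ cells, which lack lineage markers, carry Kit and Sca-1 and include the hematopoietic stem and progenitor cells of the bone marrow (BM). They came from wild-type mice and were not used fresh, but first propagated for 2 days in serum-free medium with SCF, IL-6 and IL-3. They then received extracellular vesicles (EVs), small membrane-bound particles that cells release, at 150 μg/ml for 24 h. One culture received EVs from the spleen (SP) of mice with chronic myeloid leukemia (CML) and the other received EVs from the SP of control mice, and RNA of each was put on 1 one-colour Agilent array. With 1 array per condition no difference has a replicate check, so that all values describe these 2 cultures and no test was made.

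The CML mice were a transplantation model, in which LKS+ cells carrying a BCR-ABL and GFP retrovirus were given to irradiated recipients together with normal BM. According to the methods the CML donors of these EVs had in addition been irradiated before the SP was taken, whereas the sample labels mention no irradiation and the methods mention none for the control donors. Leukemia and irradiation of the donors therefore cannot be told apart. The strain behind the 2 arrayed cultures is not given in the sources used here. Both cultures shared the cytokines, the EV dose and the time, and neither went without EVs.

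The phagocyte oxidase passes electrons from NADPH across a membrane onto oxygen and so makes superoxide, with which neutrophils and macrophages kill engulfed microbes. Its membrane part is a cytochrome made of the catalytic subunit that Cybb encodes (NOX2, or gp91phox) and the smaller subunit that Cyba encodes. In a resting cell the cytosolic subunits, among them the products of Ncf1 and Ncf4, stay apart from it, and on stimulation they move to the membrane together with a GTP-bound Rac protein. Loss of a subunit causes chronic granulomatous disease, and in mouse and human BM the genes are known to be switched on during granulocyte and monocyte maturation. Nox1 and Nox4 encode oxidases related to NOX2 that are best known outside phagocytes.

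Promoter windows from 250 bases before to 50 bases after the transcription start were found in the RefSeq table of the mouse assembly GRCm38.p6 for 5 of the 8 genes, namely Cybb, Cyba, Ncf1, Nox1 and Nox4. The windows of Cybb and Ncf1 are shown because these genes had the highest ratios, as given further on. Both read 5′ to 3′ along the gene, which lies on the minus strand at chrX:9469275-9469574 for Cybb and at chr5:134229576-134229875 for Ncf1. Capitals mark exact matches to 2 motifs searched on both strands, GAGGAA, the core bound by the myeloid transcription factor PU.1, and the core of the interferon-stimulated response element, written here as GAAA, then 2 bases of any kind, then GAAA again.
Cybb: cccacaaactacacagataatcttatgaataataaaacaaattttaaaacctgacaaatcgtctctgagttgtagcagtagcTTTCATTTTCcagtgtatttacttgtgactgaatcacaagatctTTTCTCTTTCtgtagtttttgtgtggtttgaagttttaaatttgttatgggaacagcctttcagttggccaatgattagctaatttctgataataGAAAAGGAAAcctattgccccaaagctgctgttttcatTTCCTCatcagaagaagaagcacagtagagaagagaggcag
Ncf1: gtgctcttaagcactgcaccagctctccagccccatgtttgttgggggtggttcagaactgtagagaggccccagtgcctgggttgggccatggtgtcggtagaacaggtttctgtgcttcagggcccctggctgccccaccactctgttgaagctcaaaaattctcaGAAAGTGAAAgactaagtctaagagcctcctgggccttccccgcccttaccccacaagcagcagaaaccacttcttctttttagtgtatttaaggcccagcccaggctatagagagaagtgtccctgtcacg

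In the Cybb window the response element core matched 3 times, beginning 168, 124 and 29 bases before the start, the first 2 of these on the opposite strand, where the core reads as a pair of TTTC. The PU.1 core matched once on the opposite strand, beginning at base 260 of the window. The Ncf1 window held 1 match to the response element core, 82 bases before the start, and none to GAGGAA. Among the other windows, that of Nox1 held 1 GAGGAA and no response element core, and those of Cyba and Nox4 held neither. Of the 32851 promoter windows in the table, 28.3% held GAGGAA and 3.44% held the response element core at least once. A count of 3 or more matches to that core, a limit chosen after the Cybb window had been read, was found in 5 windows, or 0.0152%. A match describes the letters of the window and does not show that a factor binds there. No marked matches overlapped.

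Across the whole of both arrays, 53.3% of 59305 spots were well above background with CML EVs and 54.4% with control EVs, and no spot was saturated. Of the 22911 genes, 13412 exceeded background clearly on each array and are called measured here. Signals are background-subtracted intensities scaled as the methods describe, and a log2 ratio sets CML EVs over control EVs, with a median over all measured genes of 0.01. Spread could be read only from probes that were spotted repeatedly on each array. The SD of their log2 ratio had a median of 0.15 below a log2 signal of 8 (10 probes), 0.09 from 8 to 11 (5 probes), and 0.03 from 11 upward (267 probes). These medians are the spot SDs used below, and the 90th percentiles were 0.48, 0.10 and 0.05. The error that the scanner software attaches to each spot is wider than these medians, about 0.20 for the log2 ratio of a bright probe. Neither covers differences between cultures or EV preparations. For a gene with more than 1 probe the brightest with CML EVs, called its leading probe, entered the counts. Every probe is given for the 8 oxidase genes, and for the genes of the lists below only some of the other probes are.

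All 6 measured genes that belong to the phagocyte complex or serve it as GTPase were slightly higher with CML EVs than with control EVs, by 1.03-fold to 1.23-fold, although Rac1 was not after quantile normalization. Their median log2 ratio was 0.20, or 1.15-fold. Of all measured genes 52% were higher with CML EVs, and of the 6706 genes with a mean signal at or above the median, to which all 6 belong, 58.9% were. Ncf1, Cybb, Rac2 and Ncf4 were at least 1.1-fold higher, a limit chosen after their values had been seen. That fold was reached by 17.3% of all measured genes and by 14.2% of the brighter ones. No oxidase gene was at least 25% higher by its leading probe, as were 5.01% of all measured genes and 2.3% of the brighter ones. These are levels in the RNA of a whole culture, in which fewer cells of a type and less RNA per cell cannot be told apart.

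**Figure D1:**
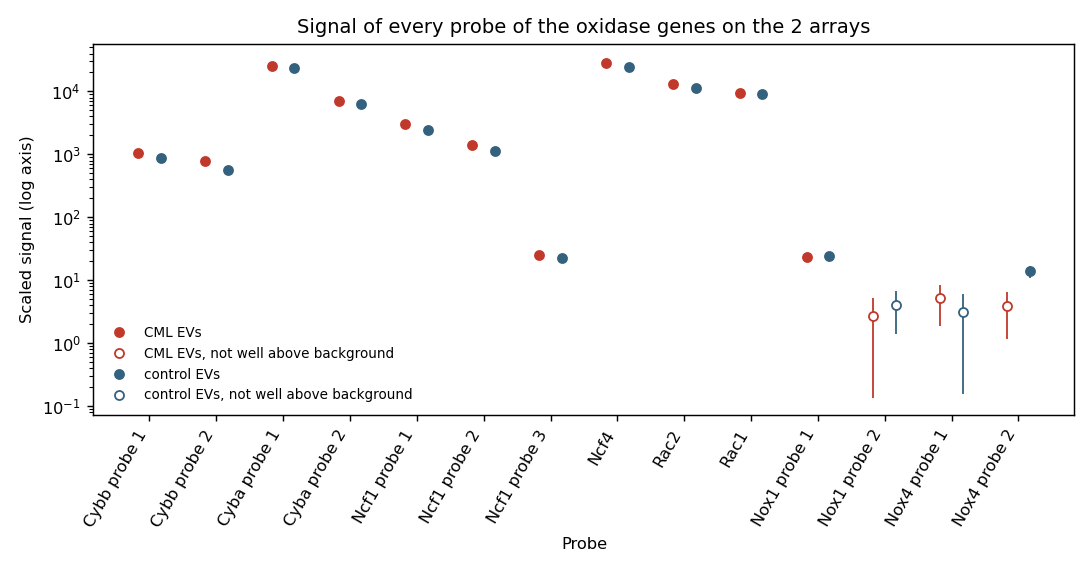
Scaled signal (log axis) of the 14 probes of the oxidase genes with CML EVs (red, left of each pair) and control EVs (blue), 1 array each; lines are the scanner software's error and open circles were not well above background. The pairs of Cybb, Cyba, Ncf1, Ncf4, Rac2 and Rac1 lie close together with the CML EV point slightly higher, and those of Nox4 and of the second Nox1 probe lie near or below background.

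Cybb encodes the flavocytochrome chain that carries out the electron transfer, and mutations of its human counterpart on the X chromosome cause the most common form of chronic granulomatous disease. Its leading probe had a signal of 1060 with CML EVs and 869 with control EVs, a log2 ratio of 0.29 or 1.22-fold. The other Cybb probe had 791 with CML EVs and 576 with control EVs, a log2 ratio of 0.46 or 1.37-fold. Both probes were higher with CML EVs, by more than the SD of 0.09 between repeated spots at such signals and by more than the software error of 0.20, and their ratios differed from each other by 0.17. Of the measured genes, 6.09% had a ratio at least as high as that of the leading probe.

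Cyba encodes the partner chain p22phox, which stabilises NOX2 in the membrane, offers a docking site to the Ncf1 product and is also the partner of NOX1 and NOX4. Its probes had 25633 with CML EVs and 23800 with control EVs, 1.08-fold, and 7070 with CML EVs and 6366 with control EVs, 1.11-fold. The log2 ratios of 0.11 and 0.15 were 0.04 apart. Both exceeded the SD between repeated spots at these signals, which was 0.03, and neither reached the error given by the scanner software. By the leading probes the log2 ratio of Cybb was 0.18 above that of Cyba, within the software error of that difference, which was 0.29, and hardly more than the 2 Cybb probes differed from each other. Of the measured genes 22.5% were at or above Cyba.

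Ncf1 encodes p47phox, the organizer subunit that is phosphorylated on stimulation and brings the cytosolic complex to the cytochrome. Its leading probe had 3028 with CML EVs and 2462 with control EVs, a log2 ratio of 0.30 or 1.23-fold. A second probe had 1420 with CML EVs and 1118 with control EVs, 0.35 or 1.27-fold. The third, whose accession is a noncoding transcript of the gene, was dim at 25.5 with CML EVs and 22.7 with control EVs, and its ratio of 0.17 was close to the SD of 0.15 between repeated spots of dim probes. The 2 coding probes gave like ratios, and of the measured genes 5.73% were at or above the leading probe of Ncf1.

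Ncf4 encodes p40phox, a cytosolic subunit that binds a phosphoinositide of the phagosome membrane. It had 1 probe, with a signal of 27820 with CML EVs and 24848 with control EVs, a log2 ratio of 0.16 or 1.12-fold. That is above the spot SD of 0.03 and below the software error of 0.20. Of the measured genes 13.8% were at least as high in ratio.

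Rac2 is the Rac GTPase restricted to blood cells and the main one of the neutrophil oxidase in mice, whereas Rac1 is expressed in nearly all cells and serves the oxidase of macrophages. Rac2 had a signal of 13299 with CML EVs and 11283 with control EVs, a log2 ratio of 0.24 or 1.18-fold. Rac1 had 9447 with CML EVs and 9200 with control EVs, 0.04 or 1.03-fold. The log2 ratio of Rac2 was 0.20 above that of Rac1, which is more than the spot SD of 0.03 and less than the software error of the difference, 0.29. The Rac1 difference is the only one of the 6 whose direction depended on the processing, with a log2 ratio of -0.01 after quantile normalization. Each had 1 probe, and whether the probes tell the related transcripts apart was not checked, since probe sequences were not used here. At or above Rac2 were 8.10% of the measured genes, and at or above Rac1 40.1%.

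**Figure D2:**
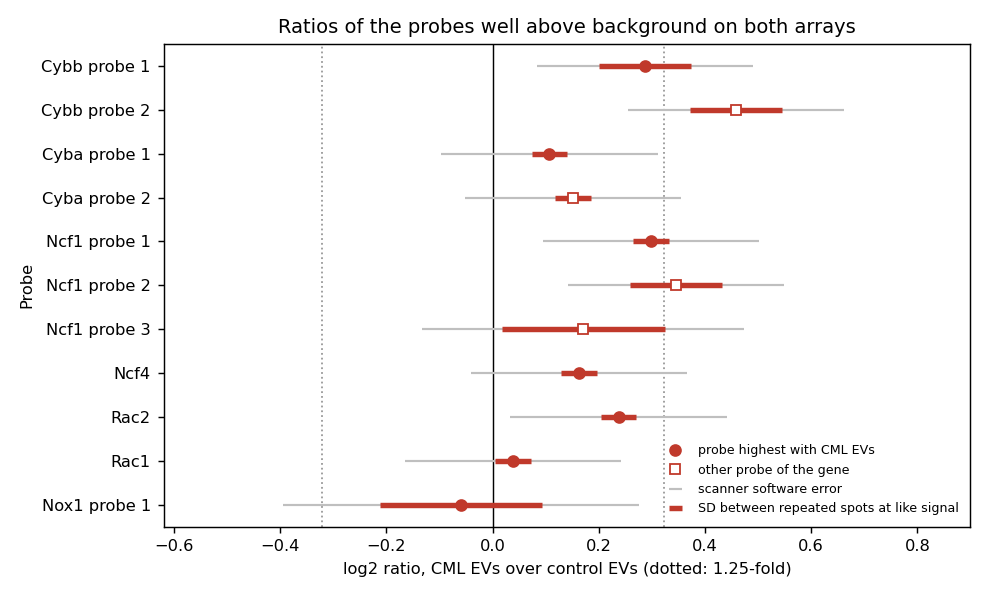
Log2 ratio (CML EVs over control EVs) of the 11 probes of the oxidase genes well above background on both arrays; filled circles are the probe highest with CML EVs, squares other probes, thick bars the SD between repeated spots at like signal and thin grey bars the scanner software's error, neither of them a spread between cultures. All probes but the one of Nox1 lie right of 0, and the second Cybb probe and the second Ncf1 probe lie beyond the dotted line at 25% higher.

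The oxidases best known outside phagocytes were at or near the limit of the arrays. Nox1, an oxidase of colon epithelium and vascular smooth muscle, had a signal of 23.7 with CML EVs and 24.7 with control EVs on its brighter probe, a log2 ratio of -0.06, which is smaller than the SD of 0.15 between repeated spots of dim probes. Its other probe was not well above background on either array, at 2.73 with CML EVs and 4.10 with control EVs. Nox4, an oxidase of kidney and vessel wall that makes mostly hydrogen peroxide, was not well above background on 1 probe, at 5.18 with CML EVs and 3.15 with control EVs. The other Nox4 probe was well above background only with control EVs, at 3.90 with CML EVs and 13.9 with control EVs. The dimmest signal well above background on the CML EV array was 13.6, which would put the level at least 1.02-fold higher with control EVs. The software error of the control EV signal was 2.93, wider than that gap, so that no direction can be given for Nox4. Nox4 was therefore in no count or median, and 7 of the 8 genes were measured.

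Over these 7 genes the median log2 ratio was 0.16, or 1.12-fold, with 6 higher and 1 lower with CML EVs, the lower one being Nox1, whose sign turned with median scaling and with quantile normalization. None was 1.1-fold lower, as 17.2% of all measured genes were. From high to low the ratios ran Ncf1, Cybb, Rac2, Ncf4, Cyba, Rac1 and Nox1. Ncf1 and Cybb were 0.01 apart and Cybb and Rac2 0.05, which is less than the spot SD of 0.09 at the signal of Cybb. The next steps were 0.07 to Ncf4, 0.06 to Cyba and 0.07 to Rac1, each above the spot SD of bright probes and well within the software error. The widest difference, 0.36 between Ncf1 and Nox1, was also less than the software error of that difference, 0.39. In 10 alternative ways of processing, the log2 ratio of Cybb ranged between 0.21 and 0.37, that of Ncf1 between 0.25 and 0.37 and that of Rac2 between 0.20 and 0.31. Those of Ncf4 lay between 0.13 and 0.23 and those of Cyba between 0.07 and 0.18, so that these 5 genes were higher with CML EVs each time.

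**Figure D3:**
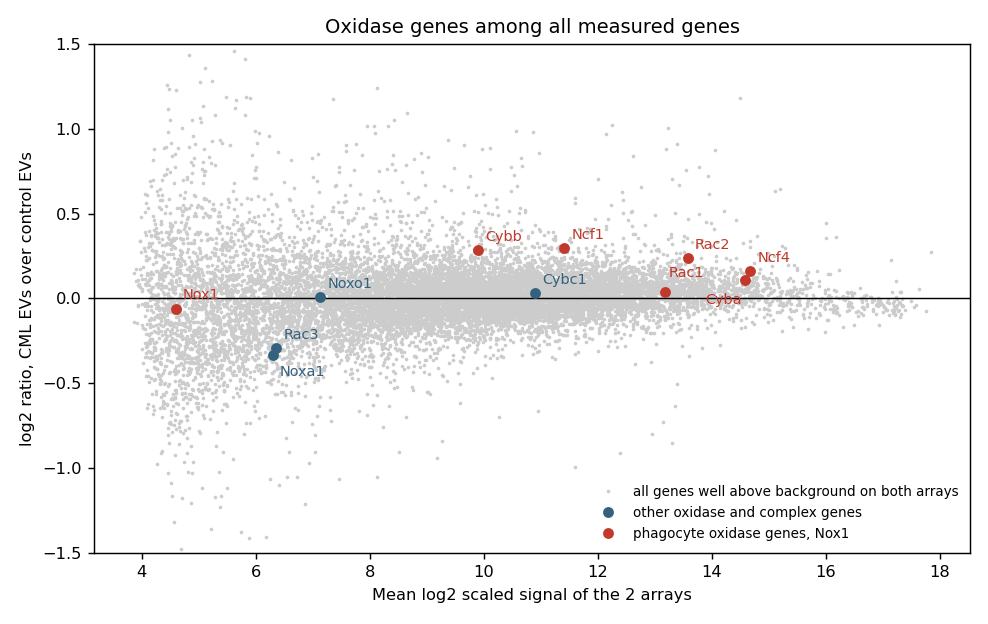
Log2 ratio (CML over control EVs, vertical) and mean log2 scaled signal of both arrays (horizontal) of each measured gene (grey, 1 point a gene), with the 7 measured oxidase genes in red and 4 related oxidase and complex genes in blue; 24 genes lie beyond the axis. Ncf1, Cybb and Rac2 lie in the upper part of the cloud at their signal but inside it, and Rac3 and Noxa1 lie below 0 where the cloud is wide.

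Of 10 further genes of NADPH oxidases and their complexes, 5 were measured, 3 higher and 2 lower with CML EVs. The median of their log2 ratios was 0.01. Cybc1, a chaperone needed for the NOX2 cytochrome, had 1942 with CML EVs and 1901 with control EVs, and Noxo1, the NOX1 counterpart of Ncf1, had 140.4 with CML EVs and 139.8 with control EVs. Noxa1, which encodes an activator subunit of NOX1, was lower, at 70.2 with CML EVs and 88.4 with control EVs, or 1.26-fold higher with control EVs. Rac3 had 74.0 with CML EVs and 90.5 with control EVs, a log2 ratio of -0.29. Both are dim, and their differences are about 2 spot SDs but less than the 90th percentile of 0.48 for dim probes. Nox3, Duox1, Duoxa1 and Duoxa2 were not well above background, and Duox2 was not found by name.

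Of 32 genes of oxidase activation (receptors, integrins, kinases, exchange factors and other partners), 31 were measured, 22 higher and 9 lower with CML EVs, and their median log2 ratio was 0.06. At least 25% higher were 3, and none was at least 25% higher with control EVs. Beside the counts of this list and of those below, 52% of all measured genes were higher with CML EVs and 5.01% at least 25% higher. C5ar1, the receptor for the complement fragment C5a that triggers the oxidative burst, had 167 with CML EVs and 121 with control EVs, a log2 ratio of 0.46. Prkcb, a protein kinase C that phosphorylates p47phox, had 761 with CML EVs and 554 with control EVs, also 0.46, and 0.30 by another probe. Fcgr1, the high-affinity IgG receptor, had 1793 with CML EVs and 1432 with control EVs, 0.32. Among genes picked after their values were seen, the proton channel gene Hvcn1, which balances the charge that the oxidase moves, had 2099 with CML EVs and 1704 with control EVs, a log2 ratio of 0.30. The β2 integrin gene Itgb2 had 2484 with CML EVs and 2020 with control EVs, also 0.30. Its partner Itgam had 4197 with CML EVs and 4835 with control EVs, -0.20, whereas another Itgam probe gave 0.43, so that no direction can be given for it. Rhog, a GTPase upstream of Rac, had 11427 with CML EVs and 9845 with control EVs, 0.21.

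Enzymes that use or remove superoxide and hydrogen peroxide had 14 of 15 genes measured, 10 higher and 4 lower with CML EVs, with a median log2 ratio of 0.04. Epx, the eosinophil peroxidase, had 2150 with CML EVs and 1252 with control EVs, a log2 ratio of 0.78, and Prdx5, a peroxiredoxin, had 13811 with CML EVs and 10801 with control EVs, 0.35. These were the 2 genes of the list at least 25% higher, as were 5.01% of all measured genes. Mpo, the neutrophil peroxidase that turns hydrogen peroxide into hypochlorous acid, had 258638 with CML EVs and 213990 with control EVs, 0.27. No gene of the list was at least 25% higher with control EVs, and the superoxide dismutases Sod1 and Sod2 had ratios of 0.01 and -0.06.

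All 17 transcription factors listed for their part in myeloid expression of oxidase genes were measured, 9 higher and 8 lower with CML EVs, with a median log2 ratio of 0.05. The highest was Cebpe, required for late granulocyte maturation, at 13580 with CML EVs and 6778 with control EVs, a log2 ratio of 1.00. Gfi1, a repressor required for neutrophil formation, came next at 6311 with CML EVs and 3219 with control EVs, 0.97, or 0.85 with the mean of its 2 probes. Hoxa10 is known from human myeloid cell lines as a repressor of the counterpart of Cybb. It was lower, at 161 with CML EVs and 226 with control EVs, a log2 ratio of -0.49, and -0.25 by another probe. The factors whose cores were searched in the promoters were picked after their values were seen. Spi1, which encodes PU.1, had 701 with CML EVs and 568 with control EVs, 0.30. Irf8, a partner of PU.1 on the Cybb gene, had 2936 with CML EVs and 2690 with control EVs, 0.13. The part of these factors in the ratios of Cybb and Ncf1 was not tested.

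**Figure D4:**
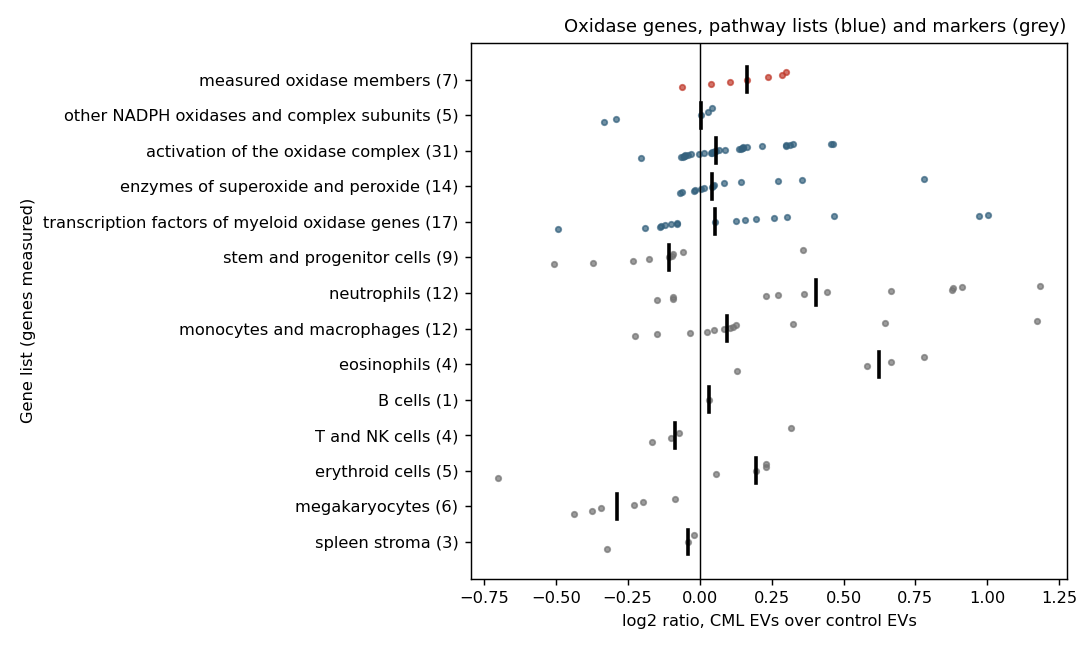
Log2 ratio (CML EVs over control EVs) of each measured gene (point) of the oxidase members (red), the pathway lists (blue) and the cell type marker lists (grey), with the number of genes measured in brackets and the median as a black bar. The median of the 7 oxidase members, 0.16, lies above those of all pathway lists shown and below those of the neutrophil, eosinophil and erythroid markers.

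Markers of the cells that use this oxidase moved with it. Of 14 neutrophil markers 12 were measured, 9 higher and 3 lower with CML EVs, with a median log2 ratio of 0.40 and a summed signal of 712398 with CML EVs and 561216 with control EVs. Elane at 1.18, Ltf at 0.91 and Ngp at 0.88 were the highest, all granule genes, while Mmp9 was not well above background and Ly6g was not found by name. Of the markers lower with CML EVs, chosen after their values were seen, Mmp8 had -0.09 and the receptor gene Csf3r -0.15. Of 12 monocyte and macrophage markers all were measured, 9 higher and 3 lower, with a median of 0.09. They were led by Vcam1 at 1.17, or 0.67 with the mean of its 2 probes, and Ly6c2 at 0.64. Their summed signal was 85693 with CML EVs and 67175 with control EVs, most of the difference being Ly6c2, and without it the sum was 38672 with CML EVs and 37094 with control EVs. Of 6 eosinophil markers 4 were measured and all were higher with CML EVs, with a median of 0.62 and a summed signal of 10008 with CML EVs and 6544 with control EVs, and Il5ra and Ccr3 were not well above background. Mpo, Epx, Irf8 and Fcgr1 stand in a pathway list as well. The part of these cell types in the oxidase ratios was not tested.

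Stem and progenitor markers ran the other way. Of 10 such markers 9 were measured, 1 higher and 8 lower with CML EVs, with a median log2 ratio of -0.11 and a summed signal of 31535 with CML EVs and 34605 with control EVs, or 9538 with CML EVs and 9760 with control EVs without Cd34. Kit, by which the cells were sorted, was present at 1529 with CML EVs and 1646 with control EVs, and Ly6a, which encodes Sca-1, was the one that was higher, with a ratio of 0.36. Slamf1 had a ratio of -0.37, or -0.64 by another probe, and Mecom was not well above background. All 6 megakaryocyte markers were lower with CML EVs, with a median of -0.29 and a summed signal of 68619 with CML EVs and 75582 with control EVs. Of 6 B cell markers 1 was measured, Cd79b, at 751 with CML EVs and 734 with control EVs, and Cd79a and Ms4a1 were not well above background. Of 8 T and NK cell markers 4 were measured, 1 higher and 3 lower with CML EVs. Among them Lck had 1130 with CML EVs and 1212 with control EVs, while Cd3g, Cd8a and Ncr1 were not well above background. The summed signal was 795 with CML EVs and 769 with control EVs for B cells. For T and NK cells it was 1950 with CML EVs and 2061 with control EVs. Of 8 erythroid markers 5 were measured, 4 higher and 1 lower with CML EVs, with a median log2 ratio of 0.19, and the lower one was the globin gene Hbb-bt at -0.70. Their summed signal was 6711 with CML EVs and 6394 with control EVs, of which Tfrc, a gene that dividing cells of other types also express, made up 3694 with CML EVs and 3556 with control EVs, and Alas2 was not well above background. Of 8 spleen stroma markers 3 were measured. Pdgfrb had 354 with CML EVs and 364 with control EVs, Pecam1 216 with CML EVs and 219 with control EVs, and Stab2 was dim. The stroma sum was 616 with CML EVs and 627 with control EVs, with Col1a1, Col3a1, Pdgfra, Cdh5 and Madcam1 not well above background.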

How the data were processed

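RNA of 2 cultures, 1 per condition, was hybridized to one-colour Agilent arrays. The authors' deposited scanner files give a background-subtracted intensity per spot made with Agilent Feature Extraction 12.0.3.1 according to the submitters' processing notes. The deposited value table equals that intensity times 1 factor per array (0.947 with CML EVs, 0.942 with control EVs), is neither log-transformed nor centred, and has medians of 21.2 and 22.2. Control spots and outlier spots (88 with CML EVs, 95 with control EVs) were left out, and each array was scaled to 2500 over the mean of its spots without the upper and lower 2%. Of 56604 probes, 32994 were named through unversioned RefSeq accessions and the GRCm38.p6 gene table. The array annotation refers to another assembly, so that no probe positions are given. The probe highest with CML EVs stood for a gene. A gene was measured if neither array marked that probe as close to background.

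Named were all 8 genes with every probe, all genes of the list of further oxidases, and of each other list the 3 measured genes with the largest absolute log2 ratio. Some genes that this rule names, and 1 list, are not reported here. The members and lists were chosen with earlier results of these data known. Alternatives covered scaling, quantile normalization, normexp background correction (limma 3.58.1, R 4.3.3), the value table as deposited, the probe standing for a gene, the dim-probe filter, outlier flags and the members counted. The steps were tested on simulated data and run in Python 3.11.15 with numpy 2.4.6 and pandas 2.3.3. A planned alignment of the proteins was not run, because no protein table was used here.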

Additional observations from a re-analysis of the deposited data

How the results depend on the processing

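No paired analysis was possible because there was only 1 array for either condition, and leaving out a replicate or saturated spots did not apply. Under 10 alternatives, 6 or 7 of the oxidase genes were higher with CML EVs and 3 to 5 were at least 1.1-fold higher. The number at least 25% higher, 0 as reported, was 2 with median scaling and 1 each with the mean of all probes, the median over probes above background and no filter on dim probes, there a dim Nox4 probe. In the main processing 17.3% of all measured genes were at least 1.1-fold higher and 5.01% at least 25% higher. These shares are not given for the alternatives, so that the counts there have no background beside them. The median log2 ratio, 0.16 as reported, was 0.23 with median scaling and 0.20 without Nox1 and Nox4. Rac1 turned to -0.01 (-0.0075) with quantile normalization. With the mean of all probes, and likewise with the median over probes above background, Itgam turned to 0.11 and the T and NK cell list to 0.02 (0.024). The transcription factor list turned to -0.0039 with normexp, and the spleen stroma list to 0.03 with both median scaling (0.030) and normexp (0.028). Values near 0 also changed sign: Nox1 turned to 0.01 with both median scaling and quantile normalization, and Cd79b, the 1 measured B cell marker, to -0.04 with normexp. Pdgfrb and Pecam1 of the stroma list did so as well. Of 710 values of single genes and lists, 693 kept their sign and 17 did not. The other scalings also used 1 factor per array and so moved the log2 ratios of all genes alike, by at most 0.07, which was with median scaling. The cause of the other shifts was not tested. Signal over background limits what can be read of Nox1 and Nox4.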
